A study of Homo sapiens with 2 samples.

Results

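The 2 mature miRNAs cut from the hairpin of miR-21, hsa-miR-21-5p and hsa-miR-21-3p, were chosen by name from the 793 mature miRNAs of a read count table. The table covers exosomes, small vesicles that cells shed, from cultures of 2 human lines of liver cancer, with 1 library for each line. MHCC97H is a hepatocellular carcinoma line selected for its high capacity to metastasize. HepG2 is a widely used line from a liver tumor, which the labels name hepatocellular carcinoma as well. Neither line carried a treatment or an engineered allele in the labels. Both were grown in medium with exosome-depleted serum, and vesicles were collected by ultracentrifugation before RNA extraction and small RNA sequencing.

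A miRNA is cut from a hairpin as a duplex of 2 strands, the 5p and the 3p arm. Usually one arm, the guide, stays in an Argonaute protein and represses messenger RNAs that match its seed, while the other arm, the passenger, is mostly degraded. miR-21-5p is the guide of its hairpin, is raised in many tumors including those of the liver, and is known to repress the tumor suppressor PDCD4. miR-21-3p is the passenger arm. It carries another seed, so its possible targets are other messenger RNAs.

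The hairpin MIR21 lies at chr17:59841266-59841337 on the plus strand (GRCh38.p14, RefSeq). In GENCODE release 29 it lies within the gene VMP1, on the same strand, where it overlaps exon 1 of VMP1-216, a transcript with a retained intron. The hairpin is shown to place the guide, whose 22 bases are in capitals and take positions 8 to 29 of 72.
MIR21 hairpin: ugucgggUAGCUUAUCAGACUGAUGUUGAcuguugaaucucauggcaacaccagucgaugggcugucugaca
In the minimum free energy structure of this hairpin from RNAfold (-34.6 kcal/mol), 19 of the 22 guide bases were paired. The guide is shown again below with its seed, bases 2 to 8, in capitals. It stands beside hsa-miR-590-5p, the 1 other human mature miRNA in the RefSeq table with that seed, and beside the second most abundant miRNA of each library.
hsa-miR-21-5p: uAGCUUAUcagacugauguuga
hsa-miR-590-5p: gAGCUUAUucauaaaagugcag
hsa-miR-148a-3p: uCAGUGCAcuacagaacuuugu
hsa-let-7f-5p: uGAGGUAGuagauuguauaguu
The guide of miR-21 and these runners-up thus carry 3 unlike seeds. Of the 793 listed miRNAs, 704 matched a RefSeq mature sequence, and among these miR-21-5p alone had its seed. The nearest of the others was 8 edits away, a distance that 4 miRNAs shared. hsa-miR-590-5p is shown for its seed alone and is not analysed here.

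Reads assigned to miRNAs numbered 304457 for MHCC97H and 22831 for HepG2. CPM below scales each count to a common total of miRNA reads, so 1 read is worth 3.28 CPM in MHCC97H and 43.8 CPM in HepG2. All intervals are 95% exact Clopper-Pearson intervals unless named otherwise, and they cover counting error only. With 1 library per line no test between the lines was possible, and the cell line and its library preparation cannot be told apart. The hepatocyte miRNA miR-122-5p had 298 reads in MHCC97H and 24 in HepG2 (979 and 1051 CPM), so this liver marker was present in both. Its partner arm miR-122-3p, the other hepatocyte marker, had 1 read in MHCC97H and 0 in HepG2. Marker miRNAs of other cell types were present as well. The 3 red cell markers summed to 11463 CPM in MHCC97H and 24528 CPM in HepG2. Of these, miR-451a was higher in HepG2 (2716 CPM in MHCC97H and 20104 CPM in HepG2). The others were higher in MHCC97H, miR-486-5p with 8313 and 4205 CPM and miR-144-3p with 434 and 219 CPM. The 4 leukocyte markers summed to 2204 and 5168 CPM, the 2 endothelial markers to 6507 and 7227 CPM, and the 4 mesenchymal markers to 20686 and 24484 CPM. None of these 13 markers was at 0 in either library, and their part in the miR-21 values was not tested. Some rested on few reads, as the mesenchymal miR-145-5p (6 in MHCC97H and 3 in HepG2) and miR-214-3p (7 and 1). miR-21-5p alone exceeded the sum of all 4 lists in both libraries, while miR-21-3p was below that sum in both. This comparison of sizes does not test what other cell types contributed.

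miR-21-5p, the guide arm, was the most abundant miRNA of both exosome libraries. It was counted 43967 times in MHCC97H and 6850 times in HepG2, which is 144411 CPM (143164 to 145665) and 300031 CPM (294090 to 306022). HepG2 was the higher library, by 2.08-fold (2.03 to 2.13), and the log2 ratio of MHCC97H over HepG2 was -1.05. At its MHCC97H share, 3297 guide reads would have been counted at the HepG2 depth, against the 6850 seen. As background, 543 miRNAs reached 10 CPM in either library. Of these, 25.2% were higher in HepG2 by 2-fold or more, and 9.02% also had a counting interval that excluded 1, as the guide did. Among the 137 with a mean of 500 CPM or more, 18.2% met both criteria in that direction. The guide passed the 2-fold line by a small margin.

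The lead of the guide over the runner-up was of similar order in both libraries, though the runner-up differed. In MHCC97H it was let-7f-5p, of the growth-restraining let-7 family, with 16293 reads, and miR-21-5p exceeded it 2.70-fold (2.65 to 2.75). In HepG2 it was miR-148a-3p, a miRNA abundant in liver, with 3252 reads, and miR-21-5p exceeded it 2.11-fold (2.02 to 2.20). let-7f-5p ranked 22 in HepG2, and miR-148a-3p ranked 9 in MHCC97H. The HepG2 library was the more concentrated, since 3 miRNAs held 50% of its reads against 12 in MHCC97H.

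miR-21-3p, the passenger arm, moved the other way. It was counted 2597 times in MHCC97H and 35 times in HepG2, which is 8530 CPM (8206 to 8863) and 1533 CPM (1068 to 2131). MHCC97H was the higher library, by 5.56-fold (3.99 to 8.01), and the log2 ratio was 2.48. At its MHCC97H share, 195 passenger reads would have been counted at the HepG2 depth, against the 35 seen. Of the 543 miRNAs, 51.7% were higher in MHCC97H by 2-fold or more, and 20.4% met both criteria, as the passenger did. Among the 137 of higher abundance 49.6% met both criteria. Of the 543, 181 had no HepG2 read, where 1 read is worth 43.8 CPM. With the pseudocount of 1 CPM each of these counts as higher in MHCC97H by 2-fold or more. The precision is set by the 35 HepG2 reads.

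The passenger ranked 26 of the 763 miRNAs detected in MHCC97H and 67 of the 362 detected in HepG2. In MHCC97H its nearest neighbors were miR-30d-5p with 2828 reads and miR-486-5p with 2531. In HepG2 it tied with miR-199b-5p at 35 reads, and miR-1260b followed with 34. These differences of 1 read or none are within counting error.

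**Figure D1:**
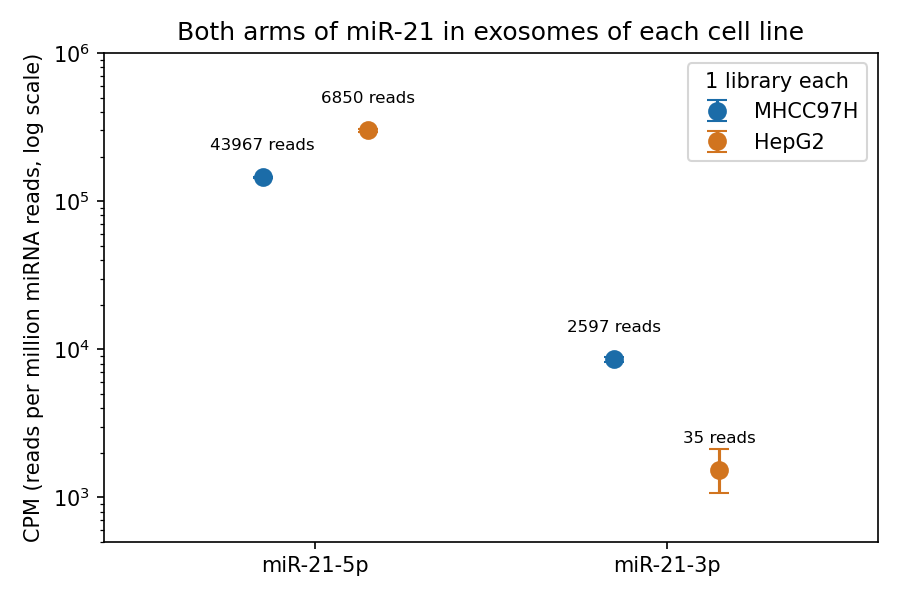
CPM on a log axis of miR-21-5p and miR-21-3p, with 1 point per library, 95% exact counting intervals as bars and the read count above each point. The guide was higher in HepG2 (300031 against 144411 CPM) and the passenger was higher in MHCC97H (8530 against 1533 CPM).

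**Figure D2:**
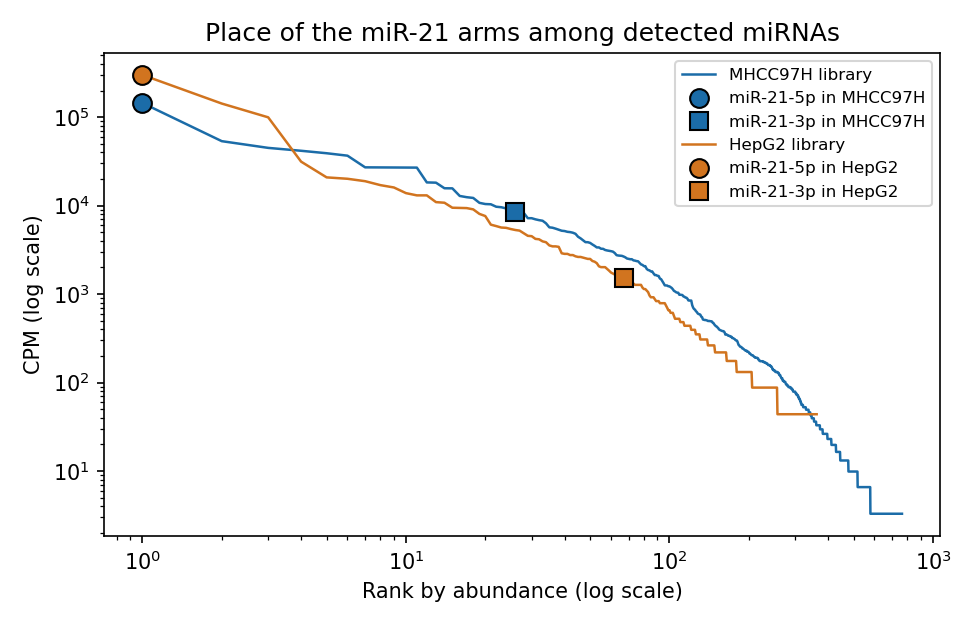
CPM against rank, both on log axes, for every miRNA detected in the MHCC97H library (blue line) and the HepG2 library (orange line). Circles mark miR-21-5p, at rank 1 in both, and squares mark miR-21-3p, at rank 26 in MHCC97H and 67 in HepG2.

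The ratio of the 2 arms within a library needs no library total, so it is free of the scaling and of the difference in depth. In MHCC97H, 94.4% of the 46564 miR-21 reads were guide (94.2 to 94.6%), a ratio of 16.9 guide reads per passenger read (16.3 to 17.6). In HepG2, 99.5% of 6885 were guide (99.3 to 99.6%), a ratio of 196 (141 to 281). The passenger share was thus 5.58% in MHCC97H (5.37 to 5.79%) and 0.508% in HepG2 (0.354 to 0.706%), and the intervals did not overlap.

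The 5p:3p ratio of HepG2 was 11.6 times that of MHCC97H (95% exact conditional interval 8.28 to 16.6). At the MHCC97H arm share, 384 of the HepG2 miR-21 reads would have been passenger, against 35 seen. Both arms together were 15.3% of all miRNA reads in MHCC97H (15.2 to 15.4%), and in HepG2 they were 30.2% (29.6 to 30.8%). Summed over its arms, miR-21 was therefore 1.97-fold higher in HepG2 (1.92 to 2.02), a value carried by the guide.

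Of the 184 miRNA names listed with both arms, 63 had at least 20 reads over both arms in each library, and miR-21 is set beside these. Their shift is the log2 5p:3p ratio of HepG2 minus that of MHCC97H, with 0.5 read added to each arm. The shift of miR-21 was 3.51 toward 5p, the sixth largest in that direction. The median over the 63 was -0.14, with 31 shifted toward 5p in HepG2 and 32 toward 3p. In 29 of the 63 an arm had 0 reads in a library, so the 0.5 read and the depth can set the direction of their shift. A shift of at least 2-fold with an exact interval that excluded 1 was seen toward 5p in 13 pairs (20.6%), miR-21 among them, and toward 3p in 7 (11.1%).

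The 5 pairs ahead of miR-21 had few or no reads of their 3p arm in HepG2, though each had an interval that excluded 1. The largest shifts were those of miR-181a (650 and 426 reads of its 5p and 3p arm in MHCC97H, 37 and 0 in HepG2) and miR-374b (316 and 103, then 44 and 0). In 4 of the 5 pairs ahead, HepG2 had no read of the 3p arm, so the size of their shift depends on the 0.5 read. The remaining one, miR-15b, of the family that restrains BCL2, had 278 and 167 reads in MHCC97H and 298 and 10 in HepG2. Among the 34 pairs with each arm read in both libraries, miR-21 came second, after miR-15b. The intervals of their 5p:3p ratios, HepG2 over MHCC97H, overlapped (9.21 to 38.7 for miR-15b and 8.28 to 16.6 for miR-21), so this order is not resolved.

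Nearest to miR-21 by shift were miR-93, of the cluster in MCM7, and miR-135b. miR-93 had a shift of 3.50, with 1503 and 28 reads in MHCC97H and 298 and 0 in HepG2. miR-135b had a shift of 3.35, with 16 and 19 reads in MHCC97H and 21 and 2 in HepG2. At the other end stood miR-27b with a shift of -6.17 and miR-186 with -5.91, each with an arm at 0 in a library. miR-27b had 685 and 8223 reads in MHCC97H and 0 and 431 in HepG2. It thus shifted toward its more abundant arm, as miR-21 did. miR-148a did so too, with a shift of -3.93 (404 and 8213 reads, then 10 and 3252). miR-186, with 809 and 0 reads and then 40 and 1, shifted away from its more abundant arm. The interval of miR-186 included 1. These pairs do not share the read depth of miR-21, which alone held 21.2% of the reads of the 63 pairs in MHCC97H and 41.6% in HepG2.

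The 63 pairs were also grouped by their leading arm. The leading arm is the one with the higher mean CPM over both libraries, and the other is the minor arm. A minor arm can thus exceed its partner in 1 library. In HepG2 miR-142-3p (59 reads against 46), miR-30e-5p (47 against 32) and miR-27a-3p (38 against 3) did so. This grouping was made after the values were seen and is given as a description. In 37 of the 63 the shift in HepG2 was toward the leading arm, and the median over all 63 was 0.34 in that direction. Of the 39 pairs led by their 5p arm, as miR-21 is, 22 shifted toward 5p in HepG2, with a median of 0.34. Of the 24 led by their 3p arm, 15 shifted toward 3p in HepG2, with a median of -0.37. Without miR-21, minor arms held 8.63% of the reads of the remaining pairs of the 63 in MHCC97H and 3.63% in HepG2. Without miR-27a as well, whose arms had 11899 (5p) and 2957 (3p) reads in MHCC97H, the shares were 7.57% and 3.25%. miR-21-3p was the third most abundant minor arm in MHCC97H and the fourth in HepG2, after miR-142-3p, miR-30e-5p and miR-27a-3p. There it tied with miR-199b-5p at 35 reads, close to miR-27a-3p with 38.

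**Figure D3:**
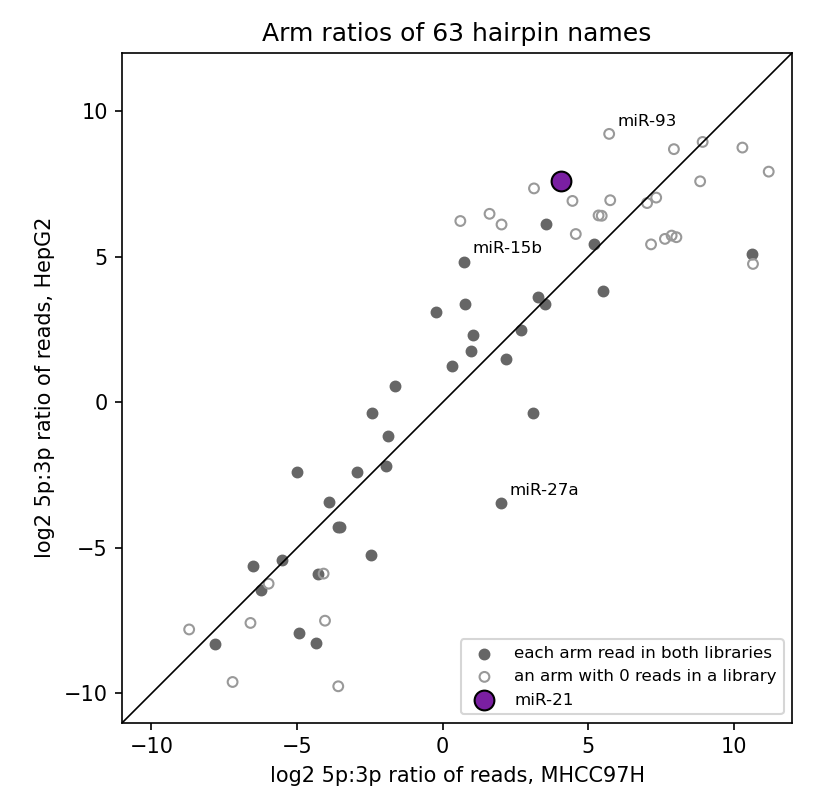
log2 of the 5p:3p read ratio in HepG2 against that in MHCC97H for 63 miRNA names, with 0.5 read added to each arm. Points above the diagonal have relatively more 5p in HepG2. Open points have an arm with 0 reads in a library, and miR-21 lies 3.51 above the line.

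Among the 117 miRNAs with at least 10 reads in both libraries, 26 had a lower log2 ratio of MHCC97H over HepG2 than miR-21-5p and 90 a higher one. For miR-21-3p, 104 were lower and 12 higher. The median of the 117 was 0.15, so the 2 arms lay on opposite sides of it. Likeness was measured as the absolute difference of log2 ratios, over 2 samples, which is a coarse measure.

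By that measure the guide was nearest to miR-374a-5p (log2 ratio -1.03, with 91 reads in MHCC97H and 14 in HepG2), miR-493-3p (-1.01, 126 and 19 reads) and miR-139-5p (-0.97, 68 and 10 reads). All 3 were counted far less often than the guide. The passenger was nearest to miR-99a-5p (2.52, 3914 and 51 reads), miR-27a-3p (2.54, 2957 and 38 reads) and let-7c-5p (2.55, 939 and 12 reads). The first and second of these also matched the passenger in abundance to within a factor of 2.

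**Figure D4:**
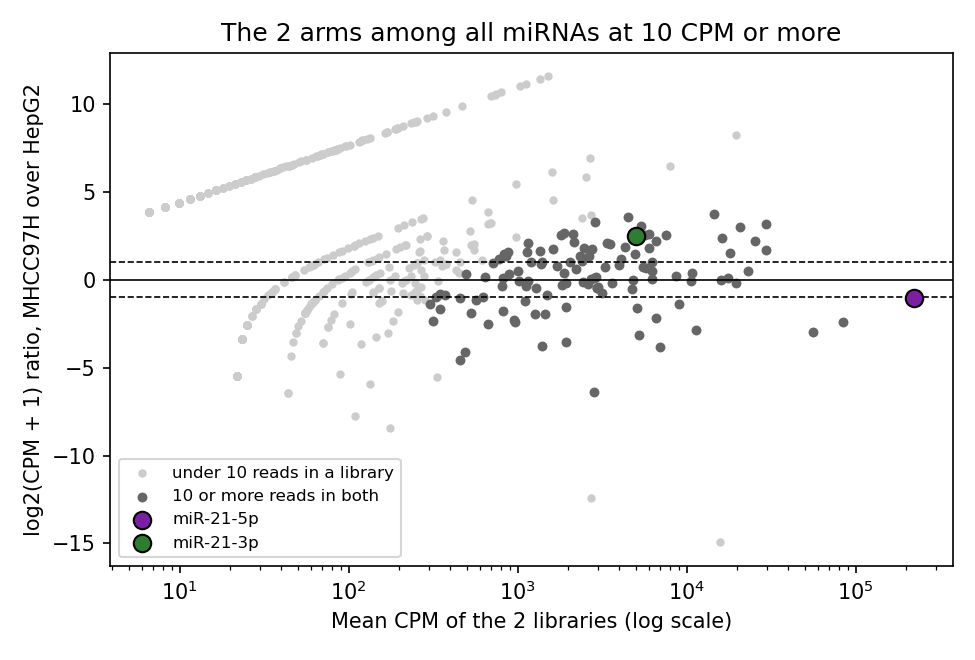
log2(CPM + 1) ratio of MHCC97H over HepG2 against mean CPM (log axis) for 543 miRNAs, with dashed lines at 2-fold. miR-21-5p, the point farthest to the right, lies at -1.05 and miR-21-3p at 2.48, while pale points have under 10 reads in a library.

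Other miRNAs reported as oncogenic are set beside the guide arm. Of 30 listed members, 27 had at least 10 CPM in a library. By fold and counting interval together, 9 of the 27 were higher in MHCC97H, 1 was higher in HepG2 and 17 were called in neither direction. Some of these 17 met a single criterion. Over all 543 miRNAs the balance also lay with MHCC97H, at 20.4% against 9.02%. With median centring the list had 6 members called for MHCC97H and 2 for HepG2, while all miRNAs had 54 and 97. Their median log2 ratio was 1.94, beside 1.12 for all 543 miRNAs. With counts of 0 set to 3 reads these medians became 0.94 and -0.74, since 8 of the 27 and 181 of the 543 had no HepG2 read. The 1 member on the HepG2 side, miR-372-3p, rested on 2 reads against 0.

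The most abundant oncogenic members were each below the guide in both libraries. miR-92a-3p, of the cluster of miR-17, had 9292 CPM in MHCC97H and 8059 CPM in HepG2, a ratio of 1.15 (0.99 to 1.35). miR-182-5p had 9584 and 1139 CPM, a ratio of 8.42 (5.73 to 12.9). miR-221-3p, a repressor of the cell cycle inhibitor p27, had 5682 and 2497 CPM, a ratio of 2.28 (1.75 to 3.02). miR-17-5p had 5157 and 2847 CPM, a ratio of 1.81 (1.41 to 2.36).

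The guide took up so much of each library that it moved the scale of the rest. Leaving miR-21-5p out of both totals lowered the plain CPM ratio of MHCC97H over HepG2 by 0.29 on the log2 scale for any miRNA read in both libraries. The passenger then had 9970 CPM in MHCC97H and 2190 CPM in HepG2, a log2 ratio of 2.19. The guide itself moved to -1.34 on that scale. With trimmed means, median centring, totals without the most abundant miRNAs or repeated names summed, the guide ranged from -1.11 to -2.17 and the passenger from 1.36 to 2.42, and neither turned direction.

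**Figure D5:**
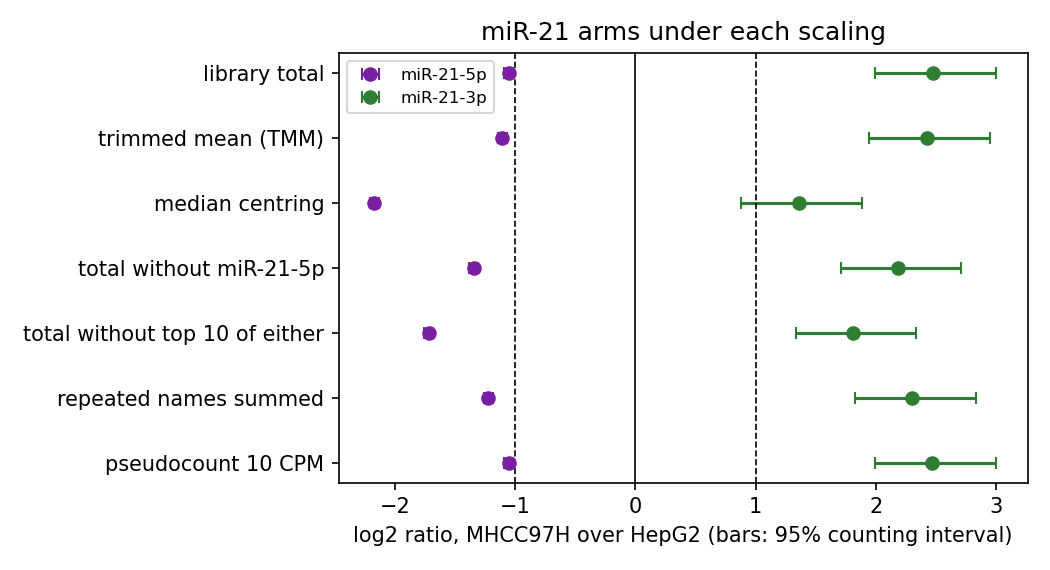
log2 ratio of MHCC97H over HepG2 of miR-21-5p and miR-21-3p under library totals and each alternative, with 95% counting intervals as bars and dashed lines at 2-fold. The guide lay between -1.05 and -2.17 and the passenger between 1.36 and 2.48, on opposite sides of 0 throughout.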

How the data were processed

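Small RNA libraries of exosomes, 1 per cell line, were analysed from 1 deposited table of raw read counts per mature miRNA, a unit named in the file headers. Adapters were handled with cutadapt and reads aligned with Bowtie, as far as those names in the submitters' processing notes tell. For neither tool is a version given in the sources used here, nor are the mismatch setting, miRBase release or build. The kit, per the labels' protocols, is described without molecular identifiers, and PCR copies of 1 molecule may be counted more than once.

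The table has 915 rows for 793 names. Of 78 repeated names, 30 had unequal counts, and the highest count was used once. Each miR-21 arm has 1 row, so this choice reaches the arms only through the totals.

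CPM, ratios and exact intervals were computed with Python 3.11.15, numpy 2.4.6, pandas 2.3.3 and scipy 1.17.1, plots with matplotlib 3.10.9, and trimmed means with R 4.3.3 and edgeR 4.0.16. Structure came from RNAfold 2.7.2. log2 ratios used a pseudocount of 1 CPM among miRNAs at 10 CPM or more in a library, and the ratios and intervals were tested on simulated data. Named miRNAs were the arms, miRNAs sharing the guide seed, the 3 nearest by log2 ratio to each arm, the second of each library, the 2 pairs nearest in arm shift and the 2 at each end, the 4 most abundant of the oncogenic list, and markers. A further list is not reported here. miR-15b, miR-27a, miR-30e-5p, miR-372-3p, the arm shift of miR-148a, the arm use of miR-142 and the rank neighbors were named after their values were seen. Members and lists were chosen with earlier results of these data known. Sequences are from RefSeq (GRCh38.p14).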

Additional observations from a re-analysis of the deposited data

How the results depend on the processing

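No paired analysis was possible because each cell line has 1 library, and no replicate could be left out. Values are log2 ratios of MHCC97H over HepG2. The guide arm moved from -1.05 to -1.11 with edgeR's trimmed mean, -1.23 with repeated names summed, -1.34 with a total without miR-21-5p, -1.72 without the 16 miRNAs that are among the 10 most abundant of either library, and -2.17 with median centring. The passenger arm moved from 2.48 to 1.81 without those 16 and 1.36 with centring, and stayed within its counting interval otherwise. A pseudocount of 10 CPM moved neither arm beyond its counting interval. Both arms met the fold and interval criteria under every one of these settings. The centre used was the median of 1.12 over 543 miRNAs, of which 181 had no HepG2 read. With counts of 0 set to 3 reads that median was -0.74, and centring on this value was not tested. Being negative, it would raise both log2 ratios and bring the guide under the 2-fold line. The 11.6-fold difference in arm ratio stayed within its interval when 0.5 read was added to each arm (11.4) and with 3 more or 3 fewer HepG2 passenger reads (10.6 and 12.6, chosen after seeing the data).

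The place of miR-21 among arm shifts was sixth of 63 pairs, 4 with 1 read added to each arm, 2 of 20 pairs at a minimum of 100 reads, and 2 of 34 pairs with each arm read in both libraries. Background calls by fold and interval (49 for HepG2, 111 for MHCC97H) became 97 and 54 with centring, 73 and 72 without the 16, and 25 and 68 at a mean of 500 CPM or more. By fold alone (137 and 281) they became 204 and 227 with centring, 25 and 68 at 500 CPM, and 531 for MHCC97H with no filter. Calls for MHCC97H by fold and interval were thus 69.4% of all calls with library totals, 35.8% with centring and 49.7% without the 16. The 35 HepG2 reads of the passenger limit the precision.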
